A study of Mus musculus with 6 samples.

Results

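The 34 genes described here encode proteins of the dermal matrix and markers of the fibroblasts that make it. They were listed by name and role, with no threshold on their values, and each was read through its brightest probe, out of 21370 genes with a named probe. All 34 had one. Of these 34 probes, 20 were well above background in all 12 channels, 11 in some of them and 3 (Eln, Mfap5 and Tnc) in none.

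The samples were epidermis of mouse embryos at embryonic day 16, of the mixed strain 129SvEx:C57BL/6. The 3 knockouts, Sox4cKO, Sox11cKO and dcKO (labelled Sox4/11 dKO in its channel), were each set against wild-type littermates on 2 arrays in 2 colours. Replicate 1 of each genotype had the knockout in the red dye Cy5 and the wild type in the green dye Cy3, and replicate 2 had the dyes swapped. In the study's methods the floxed Sox4 and Sox11 alleles were deleted with Krt14-Cre, a line on FVB/N that acts in keratinocytes, so dermal cells were not the target of the deletion. The same floxed stock also carried a Sox12 deletion in the original cross, and whether the arrayed embryos or their littermates carried it is not given in the sources used here. Nor do the sources give how many embryos went into a sample or whether a wild-type RNA was used on more than 1 array. The p-values therefore measure only the spread between these samples.

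Epidermis was peeled from dorsal skin after digestion with dispase, an enzyme that loosens the junction between epidermis and dermis. Fibrillar collagens, beaded-filament collagens, microfibrils and small proteoglycans form the matrix of the dermis, which fibroblasts secrete. Keratinocytes make part of what lies at the junction, among it type IV collagen, and some of the 34 genes, such as Sparc, Fn1 and Vim, are known in other cell types too. Reading them sample by sample asks whether a difference lies with the genotype or with the amount of dermal RNA in single samples. In such bulk samples, fewer cells of a type and less RNA per cell cannot be told apart.

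The reference promoters of 4 of the genes are shown first, 3 from genes that were low together in dcKO (Col1a2, Col3a1 and Twist2) and that of Sparc, whose probe varied little. Each is the 120 bases that end at the transcription start, from RefSeq on GRCm38.p6, 5′ to 3′ on the gene's strand. Capitals mark the letters TATAAA or CCAAT on either strand.
Col1a2: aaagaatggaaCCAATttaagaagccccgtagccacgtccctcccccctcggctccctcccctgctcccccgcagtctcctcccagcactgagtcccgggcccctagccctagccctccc
Col3a1: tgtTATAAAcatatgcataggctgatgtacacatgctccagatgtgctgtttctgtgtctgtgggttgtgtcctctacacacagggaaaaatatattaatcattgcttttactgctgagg
Twist2: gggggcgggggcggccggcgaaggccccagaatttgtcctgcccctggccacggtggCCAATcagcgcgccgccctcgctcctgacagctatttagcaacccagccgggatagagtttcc
Sparc: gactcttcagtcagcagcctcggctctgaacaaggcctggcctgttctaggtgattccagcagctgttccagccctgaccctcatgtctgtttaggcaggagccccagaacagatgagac
These lie at chr6:4505498-4505617 (plus strand), chr1:45311418-45311537 (plus), chr1:91801341-91801460 (plus) and chr11:55420081-55420200 (minus). Of the 34 genes, 20 had a promoter window of 250 bases before to 50 after the start. CCAAT was in the windows of 7 of the 20 genes and in 37.4% of all 32851 windows, and TATAAA in 7 of the 20 and in 13.6% of all. Of the short letters that SOX proteins are known to bind, AACAAT was in 5 of the 20 genes (Col3a1, Mfap2, Ogn, Postn and Twist1) and in 10.7% of all windows. The longer AACAAAG was in 0 of the 20 and in 5.85% of all. Both strands were searched, and a match is a description of the letters.

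The tissue label was checked against markers. The keratinocyte genes Krt5, Krt14, Krt1 and Krt10 were well above background in all 12 channels, as were the fibroblast genes Col1a1, Col1a2 and Twist2. Which cells these transcripts came from was not tested. Pdgfra, the receptor that marks fibroblasts, was well above background in 3 of the 6 wild-type and 0 of the 6 knockout channels. Sox4 had 2 probes. The brighter one differed by −0.42 in Sox4cKO (log2 knockout over wild type, limma adjusted p = 0.804), and the dimmer one fell by 1.96 (adjusted p = 0.0289) there and by 1.58 (adjusted p = 0.00228) in dcKO, where the brighter one was at −0.82 (adjusted p = 0.0777). The brighter Sox11 probe was well above background in 3 of 6 wild-type channels and did not pass in Sox11cKO (0.05, adjusted p = 0.979) or dcKO (−0.72, adjusted p = 0.197). The dimmer Sox11 probe was well above background in no channel. The study reports RT-qPCR on these RNAs, done before the arrays, to verify that each knockout had lost its targeted genes.

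In the model over all 6 arrays, 0 of the 34 genes passed an adjusted p of 0.05 in Sox4cKO, Sox11cKO or dcKO. Among all named genes, 0.00936%, 0% and 1.58% passed in either direction, in that order. At an unadjusted limma p under 0.05, 11 of the 34 were lower and 1 higher in Sox4cKO, 0 lower and 1 higher in Sox11cKO, and 17 lower and 2 higher in dcKO. The share of all named genes that were lower at that p was 3.85%, 3.19% and 6.6%. The median log2 difference of the 34 genes was −0.44 in Sox4cKO, 0.05 in Sox11cKO and −0.40 in dcKO, against 0.00, 0.00 and −0.01 over all named genes.

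The arrays of a genotype did not carry the same picture. In Sox4cKO the median of the 34 genes was −0.91 on replicate 1 and 0.12 on replicate 2, and 18 of the 34 genes had opposite signs on the 2 arrays. In Sox11cKO the medians were 0.18 and −0.15, and 27 of 34 had opposite signs. In dcKO they were −0.62 and −0.36, with opposite signs in 6 of 34, and 24 of 34 (70.6%) were lower on both arrays, against 27.8% of all named genes. Of all 21370 named genes, 4907 were lower and 5022 higher on both Sox4cKO arrays. The share with opposite signs in Sox4cKO was thus near that of all named genes. On both arrays, 4744 were lower and 4929 higher in Sox11cKO, and 5943 and 5487 in dcKO. Against all named genes, opposite signs were thus more common in the list in Sox11cKO and less common in dcKO. A value of 1 array also holds the probe's own difference between the dyes, which cancels in the mean of the 2.

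**Figure D1:**
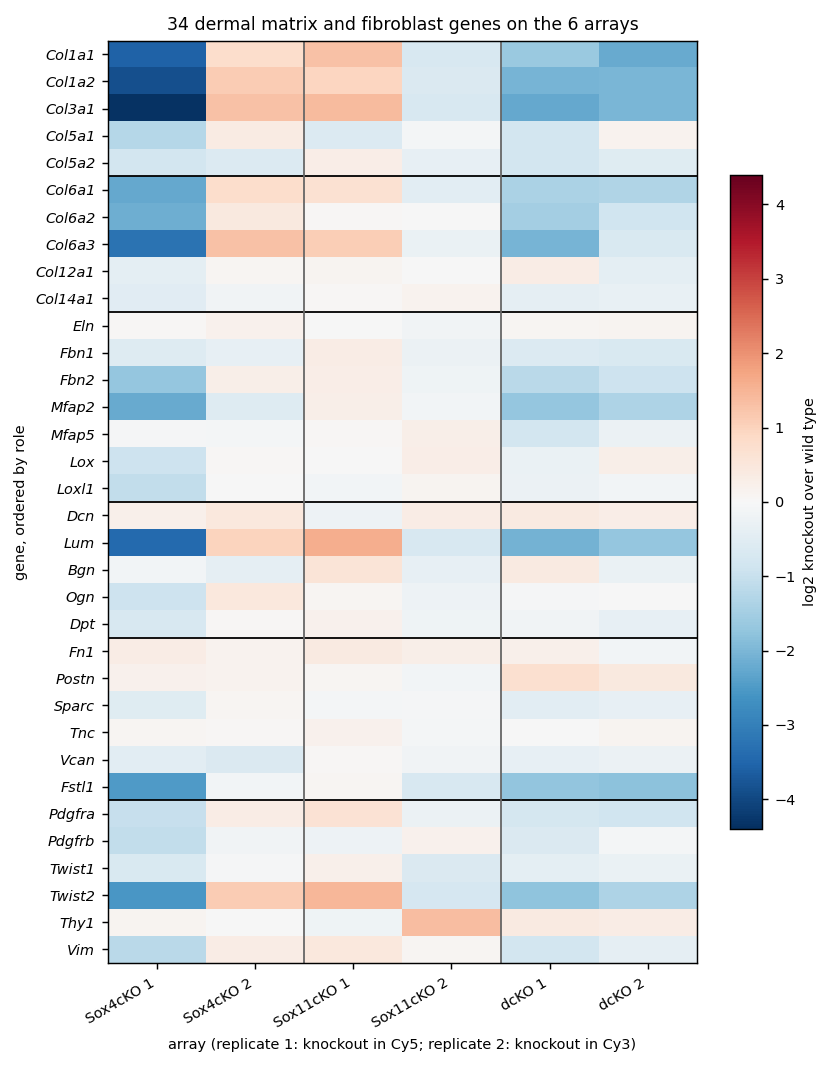
Log2 knockout over wild type of the 34 genes (rows, grouped by role with black lines) on each of the 6 arrays (columns), blue for lower and red for higher in the knockout. The deepest blue is Col3a1 on Sox4cKO replicate 1 at −4.37, while the same gene is red at 1.27 on Sox4cKO replicate 2.

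The spread between arrays was wide in many of these genes. The residual standard deviation of the model had a median of 0.44 (log2) over the 34 genes and of 0.17 over all named genes, and it was over 0.5 in 16 of 34 (47.1%) against 2.95%. Col3a1 had the highest residual SD (2.80) of the 21370 named genes, and 6 of the 34 were among the 10 highest (Col3a1, Col1a2, Lum, Col1a1, Twist2 and Col6a3). The standard error of these 6 genes was 0.72 to 0.96 in every genotype. These ranks are a description, with no test.

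**Figure D2:**
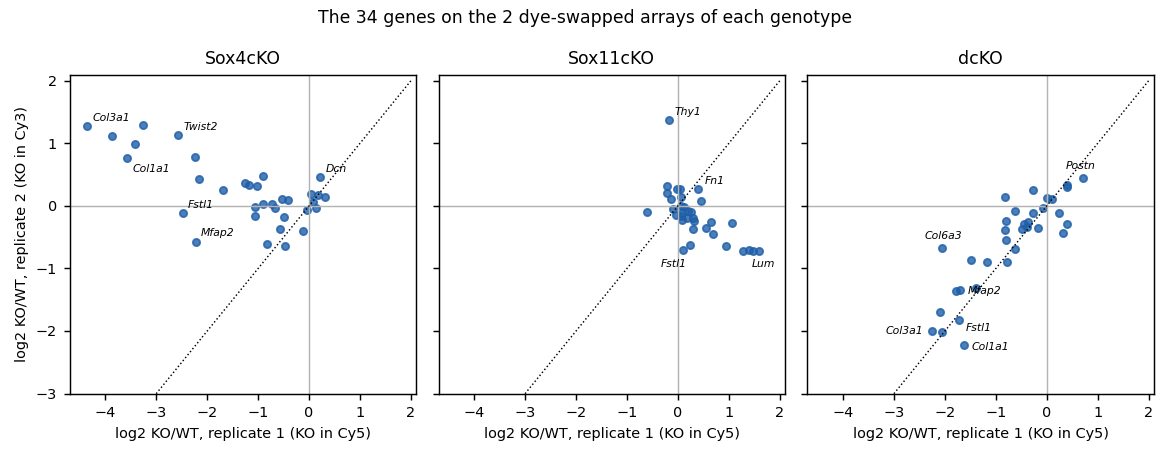
Each point is 1 of the 34 genes, with its log2 knockout over wild type on replicate 1 (x axis, knockout in Cy5) and on replicate 2 (y axis, knockout in Cy3) of the same genotype. The dotted line marks equal values. In Sox4cKO the genes that were lowest on replicate 1 are above 0 on replicate 2, in Sox11cKO the genes highest on replicate 1 are below 0 on replicate 2, and in dcKO the points run along the dotted line.

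Fibrillar collagens are the rope-like main proteins of the dermis. Col3a1, the chain of type III collagen that is abundant in fetal skin, had log2 values of −4.37 and 1.27 in Sox4cKO, 1.40 and −0.70 in Sox11cKO, and −2.25 and −1.99 in dcKO. Both dcKO arrays were below both Sox11cKO arrays and lay between the Sox4cKO arrays. The fitted dcKO difference was −2.12 ± 0.96 (SE, n = 2 arrays, limma adjusted p = 0.521). Col1a1 and Col1a2, the 2 chains of type I collagen, had the same signs as Col3a1 on all 6 arrays. Col1a1 was at −3.57 and 0.77 in Sox4cKO, 1.27 and −0.72 in Sox11cKO, and −1.63 and −2.22 in dcKO. Its dcKO difference was −1.92 ± 0.81 (adjusted p = 0.486), and that of Col1a2 was −2.03 ± 0.83 (adjusted p = 0.472).

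Type V collagen, which sets the diameter of the fibrils, moved less. Col5a1 was the fibrillar collagen with the smallest dcKO difference. It was at −1.25 and 0.36 in Sox4cKO, −0.61 and −0.10 in Sox11cKO, and −0.81 and 0.15 in dcKO, where the arrays had opposite signs and the mean was −0.33 ± 0.18 (adjusted p = 0.611). Col5a2 was not well above background in either dcKO knockout sample. By its own dim signal it was 1.59-fold lower than in wild type (fitted −0.67, adjusted p = 0.202). A fold given below as a bound sets the wild-type mean against the dimmest signal still well above background. Where the dim probe's own signal was higher, as for Col5a2, that signal was used. These folds take no account of the spread between arrays.

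Type VI collagen forms beaded filaments around cells, and its 3 chains were low on the same arrays. Col6a3 had values of −3.26 and 1.29 in Sox4cKO, 1.07 and −0.28 in Sox11cKO, and −2.06 and −0.68 in dcKO. Its dcKO arrays were both below the Sox11cKO arrays, and the mean was −1.37 ± 0.72 (adjusted p = 0.592). Col6a1 and Col6a2 differed by −1.35 and −1.17 in dcKO (adjusted p = 0.448 and 0.286). The collagens that attach to fibrils, Col12a1 and Col14a1, stayed nearer 0. Col12a1 was at −0.42 and 0.10 in Sox4cKO, 0.12 and −0.02 in Sox11cKO and 0.31 and −0.44 in dcKO, so that no genotype held 1 sign on both arrays.

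Elastic fibres are built on microfibrils of fibrillin. Mfap2, a small glycoprotein of these microfibrils, came nearest to the threshold of all 34 genes. It was at −2.23 and −0.57 in Sox4cKO, 0.26 and −0.11 in Sox11cKO, and −1.70 and −1.35 in dcKO. All 4 arrays of Sox4cKO and dcKO were below both Sox11cKO arrays, and the dcKO difference was −1.52 ± 0.28 (adjusted p = 0.0521). A dimmer Mfap2 probe was at −0.95 in dcKO (adjusted p = 0.0749). Fbn2, the fibrillin of developing tissue, differed by −1.04 in dcKO (adjusted p = 0.316), and Fbn1 was at least 1.48-fold lower (fitted −0.65, adjusted p = 0.151). Lox, the lysyl oxidase that crosslinks collagen and elastin, had the smallest difference of the group in dcKO, and with its relative Loxl1, Eln and Mfap5 it was not well above background in any dcKO channel, so no fold is given.

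Small leucine-rich proteoglycans bind collagen fibrils and space them. Lum was the one that moved with the type I and III collagens. It was at −3.43 and 0.98 in Sox4cKO, 1.58 and −0.71 in Sox11cKO, and −2.09 and −1.70 in dcKO, with a dcKO difference of −1.90 ± 0.82 (adjusted p = 0.498). Dcn, which encodes decorin, went the other way. It was at 0.22 and 0.46 in Sox4cKO, −0.21 and 0.32 in Sox11cKO, and 0.40 and 0.30 in dcKO, higher on both arrays of Sox4cKO and dcKO (dcKO 0.35 ± 0.15, adjusted p = 0.482). Bgn had opposite signs on the dcKO arrays (0.40 and −0.30). Ogn was well above background in 1 dcKO wild-type channel and no knockout channel. By its own dim signal it was 1.03-fold lower (fitted −0.05, adjusted p = 0.976). Dpt was well above background in none of the dcKO channels.

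Among the glycoproteins of the matrix, Fn1, Postn and Sparc differed by less than 1 (log2) on every array. Fn1, fibronectin, was at 0.31 and 0.14 in Sox4cKO, 0.39 and 0.27 in Sox11cKO, and 0.23 and −0.12 in dcKO. Postn, periostin, was higher on both dcKO arrays (0.72 and 0.45, mean 0.58 ± 0.13, adjusted p = 0.116), and its dcKO values were above those of the other genotypes. Sparc, a collagen-binding glycoprotein, was at −0.53 and 0.10 in Sox4cKO, −0.10 and −0.05 in Sox11cKO, and −0.48 and −0.37 in dcKO (adjusted p = 0.375).

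Fstl1, which encodes a secreted relative of follistatin, had the largest difference of the glycoproteins. It was at −2.48 and −0.12 in Sox4cKO, 0.09 and −0.71 in Sox11cKO, and −1.73 and −1.82 in dcKO. The dcKO arrays differed from each other by less than those of either single knockout and were below both Sox11cKO arrays. The mean was −1.78 ± 0.42 (adjusted p = 0.146). Vcan, the large proteoglycan versican, depended on the probe. Its brightest probe was at −0.30 in dcKO (adjusted p = 0.498), and the next, A_55_P1960202, fell by 1.55 (adjusted p = 0.0218, and 0.0646 without the replicate block), while the dimmest was at 0.14 (adjusted p = 0.809). The isoforms that each probe reads were not examined. Tnc was not well above background in any channel.

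Among the receptors, transcription factors and cell markers, Twist2, a transcription factor of dermal fibroblasts, moved with the collagens. It was at −2.57 and 1.13 in Sox4cKO, 1.47 and −0.73 in Sox11cKO, and −1.79 and −1.36 in dcKO, where the mean was −1.57 ± 0.72 (adjusted p = 0.527). The study lists Twist2, Vcan and Pcolce as direct targets of SOX11 and/or SOX4. Its list rests on ChIP-seq and on lower levels in dcKO epidermis and cultured dcKO keratinocytes. The receptors were dimmer. In dcKO Pdgfra was at least 1.66-fold lower (fitted −0.83, adjusted p = 0.405) and Pdgfrb, the smallest difference of this group, at least 1.21-fold (fitted −0.35, adjusted p = 0.449, well above background in 1 of 2 wild-type samples). Twist1 was at least 1.17-fold lower (adjusted p = 0.644), also from 1 of 2 wild-type samples. Vim, the intermediate filament of mesenchymal cells, was at −0.60 (adjusted p = 0.499). Thy1, a surface marker of fibroblasts and other cells, was at −0.18 and 1.37 in Sox11cKO and at 0.40 and 0.33 in dcKO (adjusted p = 0.712).

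The signs over the 6 arrays repeated from gene to gene. Col1a1 was lower, higher, higher, lower, lower and lower in the order Sox4cKO 1 and 2, Sox11cKO 1 and 2, dcKO 1 and 2, and 12 of the 34 genes (35.3%), Col1a1 included, had this order of signs, as had 1.5% of all named genes. So had 5 of 47 other dermal fibroblast genes (10.6%) and 2 of 16 skeletal muscle genes (12.5%). The 12 were Col1a1, Col1a2, Col3a1, Col6a1, Col6a2, Col6a3, Dpt, Fbn2, Lum, Ogn, Pdgfra and Twist2. Their medians over the arrays were −2.41, 0.77, 0.81, −0.36, −1.55 and −1.10, against −0.51, −0.02, 0.07, −0.07, −0.38 and −0.25 over the other 22. This order of signs was chosen after the values were seen and was not tested.

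The channel signals show which sample made a ratio low. They are compared here only within a dye, as log2 values after loess and Aquantile normalization. In wild type labelled with Cy3, Col1a1 was at 11.4 in the littermate sample of Sox4cKO replicate 1, 7.42 in that of Sox11cKO replicate 1 and 10.2 in that of dcKO replicate 1. In wild type labelled with Cy5 it was at 8.11, 9.33 and 9.07. Col1a1 thus ranged over 3.97 among 3 wild-type samples of 1 dye, which was more than its dcKO difference. Its knockout signals in Cy5 were 7.82 (Sox4cKO), 8.69 (Sox11cKO) and 8.54 (dcKO), and in Cy3 they were 8.88, 8.62 and 6.85.

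Among the Cy3 wild-type samples, the same one was high for most of the list. The Cy3 wild type of Sox4cKO replicate 1 was the highest of the 3 in 25 of 34 genes, and that of Sox11cKO replicate 1 the lowest in 28 of 34. In Cy5 the highest was spread over the samples, with 9 (Sox4cKO), 13 (Sox11cKO) and 12 (dcKO) of 34, and that of Sox4cKO replicate 2 was the lowest in 23. These orders were not counted over all named genes. Summed over the 34 genes on the linear scale, the Cy3 wild-type samples were at 41010, 20640 and 30760 for Sox4cKO, Sox11cKO and dcKO, and the Cy5 wild-type samples at 20580, 23340 and 22730. The knockout sums were 23060, 20760 and 22420 in Cy5 and 25340, 23020 and 19080 in Cy3. The range of the sum was thus wider among the wild-type than among the knockout samples in Cy3 and similar in Cy5. Bright genes such as Sparc and Dcn carry much of these sums. The 5 fibrillar collagens alone summed to 1417 to 13530 in Cy3 wild type and 939 to 2774 in Cy3 knockout. In Cy5 they summed to 1465 to 3401 in wild type and 1153 to 2226 in knockout.

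**Figure D3:**
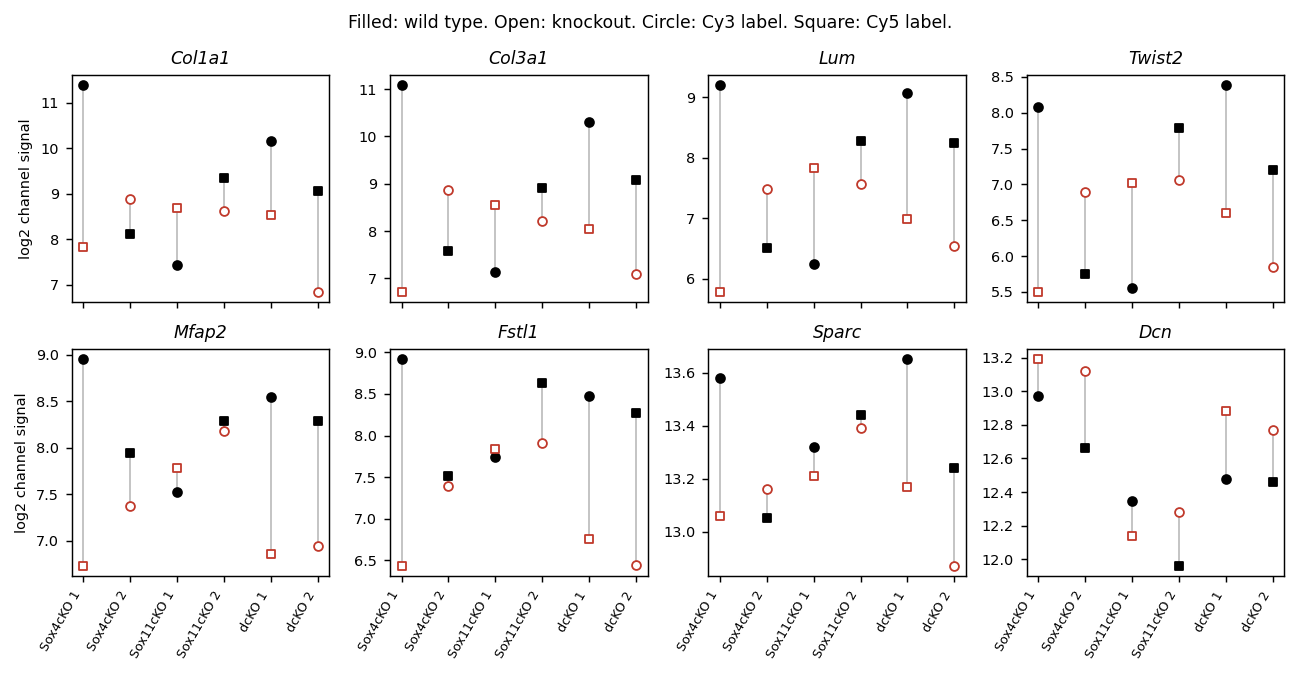
Log2 channel signal of 8 of the genes on each array, filled for wild type and open for knockout, with circles for Cy3 and squares for Cy5, a grey line joining the samples of an array. For Col1a1, Col3a1, Lum and Twist2 the filled symbols spread over more than the open ones, and the filled circle of Sox11cKO 1 is the lowest filled symbol, while both dcKO arrays have the open symbol below the filled one for all of the 8 but Dcn.

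Among the 22 of the 34 genes that were well above background in all 6 wild-type samples, 13 (59.1%) ranged over more than 1 (log2) in the Cy3 wild-type samples, against 5.31% of the 10745 named genes measured as well. The wider of the 2 wild-type ranges exceeded the absolute dcKO difference in 29 of the 34 genes, and the exceptions were Col5a2, Mfap2, Sparc, Fstl1 and Twist1. That count sets the list apart little, since the wild-type range was the larger in 86.4% of the 22 and in 90.1% of the named genes measured as well. In the dcKO samples, 10 of 34 genes were below all 3 wild-type samples of their dye on replicate 1 (29.4%) and 18 of 34 on replicate 2 (52.9%), against 38.5% and 27.2% of the 10745 named genes. In Sox4cKO these counts were 24 (70.6%) and 12 (35.3%), against 35.5% and 20.9%. In Sox11cKO they were 5 (14.7%) and 6 (17.6%), against 23.3% and 18.0%, so dcKO replicate 1 and both Sox11cKO arrays were at or under the share of all measured genes. Unlike the 10745 genes, the 34 include dim ones. Over the 22 genes measured as well, the shares were 22.7% and 59.1% in dcKO, 68.2% and 31.8% in Sox4cKO, and 13.6% on each Sox11cKO array.

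**Figure D4:**
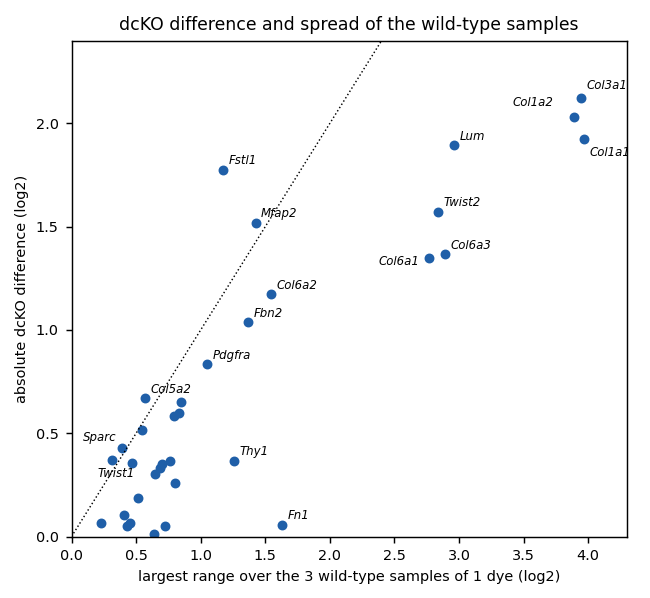
Absolute dcKO difference (y axis, log2) against the wider range over the 3 wild-type samples of a dye (x axis, log2), 1 point for each of the 34 genes. The dotted line marks equal values, and Fstl1 and Mfap2 are the genes with a difference over 1 that lie above it, while Col1a1 lies at a range of 3.97.

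Because all arrays share 1 estimate of the spread, the Sox4cKO arrays bear on the dcKO test. With either Sox4cKO array left out, the dcKO differences stayed as they were and 8 of the 34 genes passed lower in dcKO, against 0.777% of all named genes: Col1a1 (adjusted p = 0.00825), Col1a2 (0.0104), Col3a1 (0.0282), Col6a1 (0.0255), Col6a2 (0.0162), Fbn2 (0.033), Mfap2 (0.00592) and Fstl1 (0.00284). With the 2 dcKO arrays alone, 12 of 34 passed lower, against 0.805% of all named genes, and the additional genes were Col6a3, Lum, Pdgfra and Twist2. That fit has no dye coefficient, takes its spread from the dcKO pair alone and sees none of the other wild-type samples. Without Sox4cKO replicate 2, 5 genes passed lower in Sox4cKO (Col1a1, Col1a2, Col3a1, Mfap2 and Fstl1), against 0.108% of all named genes, and without replicate 1 none did and the median of the list in Sox4cKO was 0.19.

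The genotypes were also compared with each other. Between dcKO and Sox4cKO, dcKO and Sox11cKO, and Sox4cKO and Sox11cKO, 0 of the 34 genes differed at a limma adjusted p under 0.05, against 0.271%, 0.304% and 0.00468% of all named genes. At an unadjusted p under 0.05, 0 genes were lower in dcKO than in Sox4cKO (2.85% of all named genes), 10 were lower in dcKO than in Sox11cKO (4.15%) and 7 were lower in Sox4cKO than in Sox11cKO (3.1%). The difference between Col1a1 in dcKO and in Sox11cKO was −2.20 ± 1.15 (adjusted p = 0.735).

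Neighbouring lists were read in the same way. The 34 genes were left out of the list of other dermal fibroblast genes only, so some of them can count again in the further lists. Of 47 other dermal fibroblast genes, 4 passed lower in dcKO and 0 higher, against 0.604% of all named genes passing lower, with a median of −0.35. Summed over the 47 genes, the wild-type samples were at 13280 to 14510 in Cy3 and 12670 to 13060 in Cy5. The knockout samples in Cy5 were at 11710 (Sox4cKO), 12240 (Sox11cKO) and 9635 (dcKO), and in Cy3 at 14130, 14440 and 10120. By this sum, the dcKO sample was the lowest of all samples of its dye in both. By the median log2 signal it was not the lowest in Cy3. There the dcKO knockout was at 5.511 and the wild type of Sox11cKO replicate 1 at 5.463. By the median log2 signal, which the bright genes do not carry, the Cy3 wild-type samples ranged over 0.89 in this list and over 1.09 in the 34 genes. Some genes of the list, picked out after their values were seen, swung like the collagens, such as Dlk1 (−3.70 and 1.14 in Sox4cKO) and Pcolce (−3.01 and 0.93). Fap, a surface protease of activated fibroblasts, fell by 1.76 (−1.94 and −1.58 on the 2 arrays, adjusted p = 0.00194). Fbln2, a glycoprotein of the junction and of elastic fibres, fell by 1.28 (adjusted p = 0.00343), Timp2, an inhibitor of matrix proteases, by 0.98 (adjusted p = 0.0368) and Igf2, a growth factor, by 0.86 (adjusted p = 0.0219).

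Further lists held a gene that passed in dcKO. Of 18 basement membrane genes, Col4a1 fell by 1.44 (adjusted p = 0.0078) and Col4a2 by 0.96 (adjusted p = 0.0375), the 2 main chains of type IV collagen. Pdgfa, which encodes a ligand of the receptor Pdgfra, fell by 0.75 (adjusted p = 0.0446), 1 of 15 ligands and receptors of the PDGF and TGF-beta families. Pparg, a regulator of fat cell formation, fell by 0.78 (adjusted p = 0.0358), 1 of 7 fat cell genes. In Sox4cKO these 8 genes were at −0.56 (Fap), −0.66 (Fbln2), −0.04 (Timp2), −0.37 (Igf2), −1.09 (Col4a1), −0.69 (Col4a2), −0.53 (Pdgfa) and 0.10 (Pparg), and none passed there. Fap and Fbln2 kept an adjusted p under 0.05 in 12 of 13 alternatives, Col4a1 in 11, Igf2 in 9, Timp2 in 8, Col4a2 and Pparg in 7 and Pdgfa in 5. These 13 are not separate checks. The deposited series table held nearly the same values, and leaving out either array of a single knockout gave the same adjusted p. By the log ratio of the Feature Extraction program all 8 calls were lost, among them Fap (limma adjusted p = 0.291), Fbln2 (0.292) and Col4a1 (0.334). Without the replicate block, 5 of the 8 calls were lost: Timp2 (adjusted p = 0.178), Igf2 (0.0687), Pdgfa (0.173), Col4a2 (0.0803) and Pparg (0.0745). On the Sox4cKO arrays Col4a1 was at −1.38 and −0.80 and Fap at −0.67 and −0.45, each with 1 sign. Timp2 had opposite signs there, at −0.34 and 0.26.

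**Figure D5:**
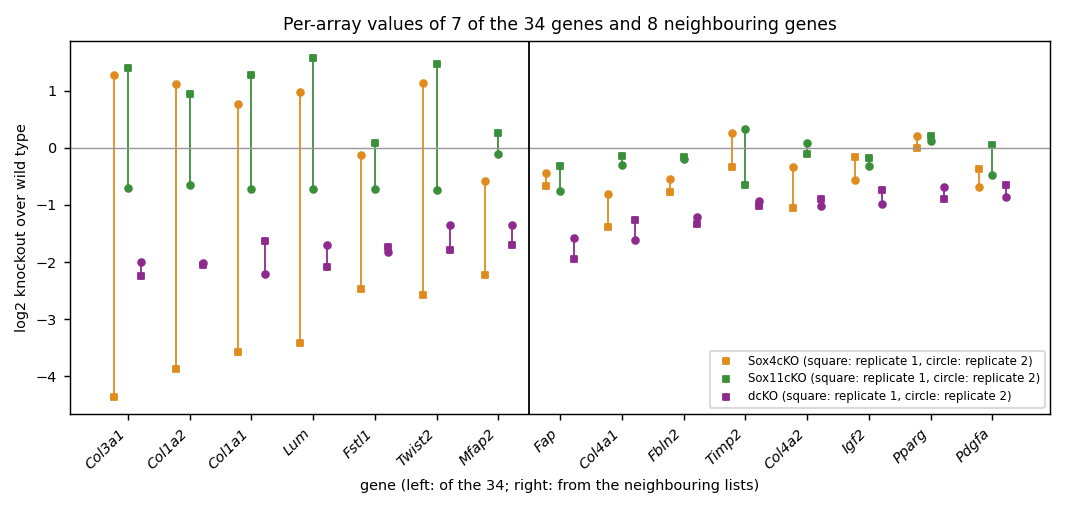
Log2 knockout over wild type on each array for 7 of the 34 genes (left of the black line) and the 8 neighbouring genes that passed in dcKO (right), coloured by genotype, with a square for replicate 1 and a circle for replicate 2. Col3a1 runs from −4.37 to 1.27 between the Sox4cKO arrays, while the dcKO pairs lie below 0 on both sides of the line.

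The remaining lists held no gene that passed in any genotype by limma. They are not independent of the 34 genes, since Sparc is among the lower collagen-processing enzymes counted here. At an unadjusted p under 0.05 in dcKO, the lower and higher genes numbered 7 and 1 of 21 collagen-processing enzymes, 2 and 0 of 11 collagen and fibronectin receptors, 4 and 0 of 14 dermal condensate and papilla genes, 2 and 0 of 10 mural cell genes, 1 and 0 of 12 endothelial genes, 0 and 1 of 12 immune genes and 2 and 2 of 17 keratinocyte genes. Among all named genes 6.6% were lower and 6.33% higher at that p, so the endothelial, immune and keratinocyte counts were near the background. No gene of the lists for skeletal muscle (16 genes), Schwann cells (9), melanocytes (7) or red blood cells (6) was below that p in dcKO, although 13 of the 16 muscle genes were lower there, with medians of −0.12 and −0.54 on the 2 arrays. The muscle list also swung with the Sox4cKO arrays, with a median of −1.21 on replicate 1 and 0.11 on replicate 2, and Acta1, the actin of skeletal muscle, was at −2.99 and 0.15. Among the Cy3 wild-type samples its summed level was 3520 on Sox4cKO replicate 1, 944 on Sox11cKO replicate 1 and 1004 on dcKO replicate 1. Among the Cy5 wild-type samples it was 925 on Sox4cKO replicate 2, 694 on Sox11cKO replicate 2 and 1480 on dcKO replicate 2, where 10 of 16 muscle probes were well above background, against 5 in the knockout. Keratinocyte genes summed to 322200 to 353000 in the Cy3 wild-type samples and, more widely, to 259700 to 394400 in the Cy5 wild-type samples. In the Cy3 wild type of Sox4cKO replicate 1, 14 of the 16 muscle probes were well above background, against 6 of 16 in its knockout partner. Of the 12 endothelial genes, 2 were well above background in all 12 channels (Kdr and Egfl7) and 5 in none, and the defining markers Pecam1 and Cdh5 in 5 and 1. Of the 12 immune genes, 3 were in all 12 channels (Cd68, Csf1r and Fcer1g) and 2 in none, among them Ptprc. The part of carried-over dermis or muscle in the differences of the 34 genes was not tested.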

How the data were processed

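The 6 Agilent 2-colour arrays were of peeled epidermis, 2 for each knockout. Scans were extracted by the authors in Feature Extraction. Deposited per array were the median intensity of each spot and channel and its local background, not normalized, and the program's own log10 ratio. The deposited series table holds log2 knockout over wild type, made per the methods with normexp and loess in limma. It matched the values computed here at a slope of 1.00, so the methods' ComBat colour removal was not in it.

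In R 4.3.3 with limma 3.58.1, median signals were corrected with normexp (offset 16) and normalized by loess within arrays, control and outlier spots were left out and spots of a probe averaged, which gave 55681 probes. A model of all 6 arrays held 3 genotype coefficients and 1 dye coefficient, with eBayes (6.63 prior and 2 residual degrees of freedom). Tests were two-sided with Benjamini-Hochberg adjustment over all probes, and a gene passed at an adjusted p under 0.05. Symbols came from RefSeq accessions on GRCm38.p6. Named with full values were the genes of largest and smallest dcKO difference in each of 6 role groups, and passing genes of 15 neighbouring lists, at most 5 per list. Postn, Dcn, Thy1 and the other genes were added to account for all 34. Genes and lists were chosen with earlier results of these data known.

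In each channel 38.9% to 43.6% of the spots other than controls rose well above background, none was saturated, and the number of arrays limits the precision. All arrays lay on 1 slide, read in 1 scan, so neither could be fitted. The replicate numbers coincide with the dye orientation, so the dye coefficient is also a replicate block. Same-numbered arrays deviated together over all probes (r = 0.26 for Sox4cKO and Sox11cKO, 0.31 for Sox4cKO and dcKO and 0.33 for Sox11cKO and dcKO), but over the 34 genes r was −0.76, 0.32 and 0.02. The model was also run on simulated data with independent noise for each probe. Those data held no shift shared by the genes of 1 sample, so that run does not bear on such shifts. Alternatives were another offset, no background subtraction, the log10 ratio, the series table, median centring, no replicate block, each genotype's own arrays, a filter on dim probes, other probes of a gene and leaving out each array.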

Additional observations from a re-analysis of the deposited data

How the results depend on the processing

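The number of the 34 genes that passed in dcKO was 0 in the model over all arrays and depended on the setting. It was 2 with a normexp offset of 50 (Mfap2 at −1.30 and Postn at 0.55), 3 with no background subtraction (these and Fstl1 at −1.66), 1 with median centring in place of loess (Mfap2), 12 with only its own 2 arrays, and 0 to 8 when 1 array was left out. Among all named genes those settings passed 4.58%, 3.68%, 1.82% and 1.9%, against 1.58%. Leaving out 1 array gave 0 to 5 passing genes in Sox4cKO, the 5 without replicate 2, and 0 to 1 genes differing between Sox4cKO and Sox11cKO (Col1a1, −4.50, adjusted p = 0.0321, without Sox4cKO replicate 2). The median of the list in dcKO was −0.81 by the Feature Extraction log ratio and −0.65 over the 27 genes left by the filter on dim probes, against −0.40, and its median in Sox11cKO ran from −0.37 to 0.35 with 1 array left out. Without the replicate block (no dye coefficient) 0 of the 34 passed in any genotype and the dcKO median was −0.40, so the block changed no call of the 34 brightest probes, while the second Vcan probe and 5 of the 8 neighbouring genes lost theirs, as given above. Loss of Sox4cKO replicate 1 or 2 decided the 8 passing genes, as given above. Signs turned for values that passed nowhere. By the Feature Extraction log ratio in Sox11cKO, Col12a1 was at −0.0727 and Lox at −0.15. With median centring, Col12a1 was at −0.043 and Mfap2 at −0.0405 in Sox11cKO, and Lox at 0.0236 in dcKO. With 1 array left out, the Sox4cKO values ran from −4.83 to 1.73 (Col3a1), −3.25 to 1.28 (Col6a3), −0.64 to 0.33 (Col12a1), −3.90 to 1.46 (Lum), −0.97 to 0.54 (Ogn), −2.71 to 0.11 (Fstl1) and −3.02 to 1.58 (Twist2). The Sox11cKO values ran from −2.18 to 2.87 (Col3a1), −0.74 to 0.0354 (Col5a1), −1.76 to 2.55 (Col6a3), −0.61 to 0.76 (Mfap2), −0.0916 to 0.36 (Lox), −1.91 to 2.78 (Lum), −0.58 to 0.44 (Ogn), −1.28 to 0.66 (Fstl1), −1.76 to 2.50 (Twist2) and −0.16 to 0.14 (Pdgfrb). The dcKO values ran from −0.54 to 0.41 (Col12a1), −0.0516 to 0.0294 (Lox), −0.30 to 0.20 (Ogn) and −0.043 to 0.16 (Fn1). With 1 array of a genotype left, its lone array is assumed to vary like the others. The cause of these changes was not tested. Low signal limits the 12 genes not well above background in the dcKO knockout samples.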
